A study of Homo sapiens with 5 samples.

Results

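The cyclin E, cyclin A and CDK2 axis was examined as 7 genes, CCNE1, CCNE2, CCNA2, CDK2, CDC25A, SKP2 and FBXO5, among the 19970 protein-coding genes annotated on chromosomes 1 to 22 or X. The genes were taken by name. For each of them, Rb peaks were collected that overlapped a promoter window, from 2000 bp upstream to 500 bp downstream of any annotated transcription start site (TSS), together with other peaks for which the gene had the nearest protein-coding TSS within 50 kb. Native Rb was profiled by CUT&RUN, in which an antibody brings a nuclease to its target on chromatin and the DNA fragments that are cut free are sequenced. The cells were parental ZR-75-1 cells, an established hormone receptor-positive breast cancer line with no engineered allele. They received DMSO (2 Rb libraries) or 500 nM abemaciclib, a CDK4/6 inhibitor (2 Rb libraries), for 4 days, and 1 IgG2a library came from DMSO cells as the negative control. According to the study's methods, the replicates were independent cultures, all of a single cell line.

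CDK2 is the kinase that drives cells from G1 into S phase. The E cyclins activate it at the G1/S transition and cyclin A2 does so during S phase, while CDC25A removes the inhibitory phosphates from CDK2. SKP2 is the substrate receptor of the ubiquitin ligase that destroys the CDK inhibitor p27, and FBXO5 (EMI1) restrains the anaphase-promoting complex, which otherwise degrades cyclin A2 and SKP2. Hypophosphorylated Rb binds E2F factors and silences E2F target genes, many of which belong to this axis, and CDK2 in turn phosphorylates Rb. Activity of cyclin E with CDK2 is a known route by which hormone receptor-positive tumours proliferate despite CDK4/6 inhibition.

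The peak lists held 1438 and 2582 peaks with DMSO, 13960 and 12234 with abemaciclib, and 589 for IgG2a. Depth, as implied fragments, ranged from 7.69 to 13.6 M (M, 1000 × 1000), with both abemaciclib libraries below both DMSO libraries. For each peak, the number of fragments stacked at its summit (the pileup) was solved from the fold enrichment and p-value, and it was divided by the background coverage of the same library to give a scaled pileup, in multiples of that background. Being a value at a single base, it can be set side by side between genes. At the background level of the library, the lowest pileup that the lists contained was 6 with DMSO, or 9.24 and 8.86 as scaled pileups, and 5 with abemaciclib, or 7.62 and 9.59. A promoter with no listed peak may therefore still have held signal near or under these levels. Where the local background was raised, the level needed for a listing was higher.

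All 7 promoters carried an Rb peak in both abemaciclib libraries, and 4 of them, those of CCNE2, CDC25A, SKP2 and FBXO5, also carried one in both DMSO libraries. Over all protein-coding genes, 52.7% had a promoter peak in both abemaciclib libraries, 6.41% in both DMSO libraries and 6.41% in all 4 Rb libraries. CCNA2 and CDK2 were listed by both abemaciclib libraries but by no DMSO library, a pattern held by 38.9% of coding genes. CCNE1 fell between these patterns, with a peak in DMSO replicate 2 and in both abemaciclib libraries. No IgG2a peak lay in any of the 7 promoter windows, where the share over all coding genes was 0.03%, nor within 50 kb of the canonical TSS of any of the 7 genes. Each promoter held a single peak per library. The 7 genes were chosen with results of these data known, so their counts are a description.

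**Figure D1:**
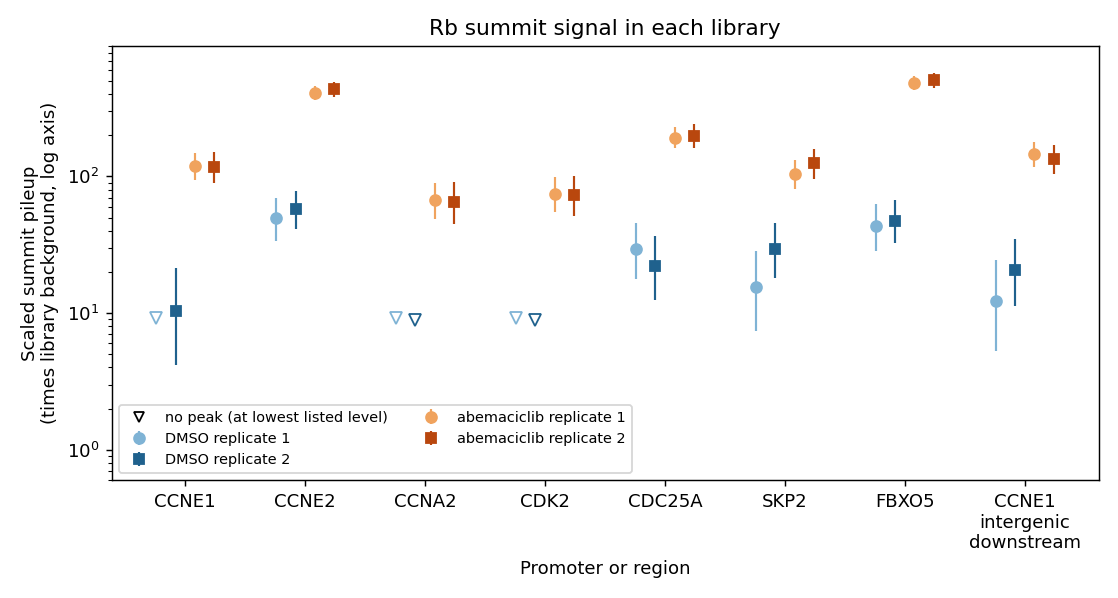
Scaled summit pileup (log axis, in multiples of the library's background) at the 7 promoters and at the intergenic region downstream of CCNE1, 1 point per Rb library; vertical lines are exact Poisson 95% intervals of the pileup (counting error only), and open triangles mark libraries without a listed peak, drawn at the lowest level the list contains. That level holds at the library's background, and the level needed is higher where the local background is raised. Both abemaciclib points lie above both DMSO points wherever all 4 exist, and FBXO5 and CCNE2 stand highest, between 409 and 505.

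Stretches of the member promoters that held motif letters, either near an abemaciclib summit or close to the canonical TSS, are given for 5 members. No stretch is shown for CCNE2 or SKP2. Letters were sought on both strands for E2F (TTTCCCGC, TTTGGCGC, TTTCGCGC or TTTGCCGC, and the last 7 letters of each, which every 8-letter match contains), for the cell cycle homology region CHR (TTTGAA) and for NFY (CCAAT). In the sequences, read 5′ to 3′ on the strand of the gene from GRCh38, capitals mark these letters or their reverse complement. Only these exact letters were sought, so variants of a motif stay in lower case. Positions count from 0 at the canonical TSS, and those upstream are negative.
CCNE1 promoter, chr19:29811591-29811690, plus strand, -400 to -301: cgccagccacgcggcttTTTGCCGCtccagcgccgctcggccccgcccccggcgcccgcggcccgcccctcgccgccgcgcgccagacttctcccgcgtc
CCNA2 promoter, chr4:121823884-121823983, minus strand, -100 to -1: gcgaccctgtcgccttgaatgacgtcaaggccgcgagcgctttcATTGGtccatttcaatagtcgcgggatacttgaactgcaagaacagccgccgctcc
CDK2 promoter, chr12:55966730-55966780, plus strand, -100 to -50: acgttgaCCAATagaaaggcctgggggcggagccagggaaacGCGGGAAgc
CDK2 start site, chr12:55966810-55966834, plus strand, -20 to 4: actcggtgggagGCGGCAAcattgt
CDC25A promoter, chr3:48188418-48188537, minus strand, -120 to -1: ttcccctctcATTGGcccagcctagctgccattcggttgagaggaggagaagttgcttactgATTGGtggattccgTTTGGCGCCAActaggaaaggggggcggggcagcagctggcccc
FBXO5 promoter, chr6:152983162-152983191, minus strand, -150 to -121: cggcagcctCCAATTGGgcgcggacgaggg
FBXO5 promoter, chr6:152983064-152983093, minus strand, -52 to -23: ttaggcaccaaaTTCAAAgattttaaaagt
The E2F letters of CCNE1 begin at -383 and lay within 100 bp of the summit in both abemaciclib libraries. In CDC25A, an 8-letter match that begins at -44 overlaps a 7-letter match on the other strand, so that the run reads the same core in both directions. The CDK2 promoter has a reversed 7-letter core at -58 and another at -8. FBXO5 has no E2F letters from -250 to +50 but a reversed CHR at -40 and 4 CCAAT boxes, of which the pair at -141 and -138 overlap. The FBXO5 summits lay outside this window, from 447 to 353 bp upstream. Both DMSO peaks of FBXO5 reached only to -99, short of the CHR. CCNA2 has a reversed CCAAT at -56, and CCNE2 has a 7-letter core at -18 and a reversed CCAAT at -24. SKP2 had none of the letters in that window. The DMSO replicate 1 peak of CCNE2 reached only to -57, short of the CCNE2 letters.

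Within 200-bp windows centred on the abemaciclib summits, E2F letters were present for CCNE1 and CDK2 in both replicates. The summit windows of CCNE2, CDC25A, SKP2 and FBXO5, the 4 members bound in all 4 libraries, held none of the letters. Among summit windows of all coding promoter peaks with abemaciclib, 3.67% and 3.94% in replicates 1 and 2 held an 8-letter E2F match, 17.5% and 17.9% a 7-letter core, 3.77% and 3.93% a CHR, and 18.8% and 19.7% a CCAAT. From -250 to +50 of the canonical TSS of every coding gene, the shares were 4.37%, 17.1%, 11.5% and 36.0%. A match is a description of letters only, and the absence of a match says nothing about the factor.

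CCNE2, which encodes the second E-type cyclin, was among the most strongly bound promoters, with 27 of 10366 coding genes above it in mean abemaciclib signal (genes with a solved promoter peak in both abemaciclib libraries; genes that share a peak count separately). In scaled pileup, DMSO replicates 1 and 2 gave 49.3 and 57.6, and abemaciclib replicates 1 and 2 gave 409 and 434. The DMSO values were close to each other and well below both abemaciclib values. The mean was 53.4 ± 5.90 with DMSO and 421 ± 17.6 with abemaciclib (mean ± SD, n = 2 each), a ratio of 7.88, with single-library ratios from 7.09 to 8.80. The two-sided p was 0.333 by an exact permutation test, which is the smallest p that 2 libraries against 2 can give and applies to each promoter compared below. By the −log10 p of the peak caller, the CCNE2 peak ranked 63 and 91 with DMSO (−log10 p of 32.2 and 35.9) and 28 and 34 with abemaciclib (488 and 355). Its fold enrichment was 13.5 and 12.9 with DMSO and 106 and 68.0 with abemaciclib. The local background under this peak was raised to between 2.23 and 4.49 times that of the library, which lowers the fold but not the pileup. Peaks were called against IgG, and the scaled pileup is not corrected for this local background. By fold, the ratio of treatment means was 6.59.

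The CCNE2 peak lay over a bidirectional promoter. It covered chr8:94894313-94897095 and overlapped the promoter window of NDUFAF6 as well, a gene for an assembly factor of mitochondrial complex I. The summits fell from 289 to 178 bp upstream of the canonical CCNE2 TSS, inside an intron of longer CCNE2 transcripts, and in 3 of the 4 libraries the nearest coding TSS was that of NDUFAF6. The signal thus cannot be assigned to either gene alone.

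CCNE1, the gene for cyclin E1, differed from CCNE2 in its low DMSO signal. No promoter peak was listed in DMSO replicate 1, and the peak in DMSO replicate 2 had a scaled pileup of 10.3, from 7 fragments (exact Poisson 95% interval 2.81 to 14.4), close to the lowest listed level. With abemaciclib the scaled pileup was 119 and 117, from 78 and 61 fragments. The promoter went from the edge of detection to a level exceeded by 1285 of the 10366 coding genes. Because 1 DMSO value is missing, no ratio of means was formed. The peak ranked 2006 of 2582 in DMSO replicate 2, with a fold of 4.77 and a −log10 p of 6.22, and 993 and 915 with abemaciclib, with folds of 43.5 and 37.7 and −log10 p of 124 and 97.6. It covered chr19:29811095-29812562, with summits from 331 to 237 bp upstream of the TSS, in sequence outside annotated transcripts and overlapping no other promoter window.

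CCNE1 was the only member with Rb peaks beyond its promoter. A peak in both abemaciclib libraries that lay outside the gene's promoter and nearest to it was found for 5.2% of coding genes. The strongest such region, chr19:29844302-29845534, was intergenic, overlapped no annotated promoter window, and had its summits from 32.5 to 32.6 kb downstream of the canonical CCNE1 TSS and from 22.8 to 22.9 kb beyond the nearest annotated CCNE1 TSS. It was listed in all 4 Rb libraries, although the CCNE1 promoter was listed in 3. The scaled pileups were 12.3 and 20.7 with DMSO and 145 and 134 with abemaciclib, so the region exceeded the CCNE1 promoter in every library that listed both, although the exact Poisson intervals of the pileups overlapped in each of these libraries. The mean was 16.5 ± 5.91 with DMSO and 140 ± 7.48 with abemaciclib (mean ± SD, n = 2 each), a ratio of 8.46, with single-library ratios from 6.49 to 11.8. The peak caller gave folds of 5.19 and 8.54 with DMSO and 48.1 and 45.1 with abemaciclib, and ranks of 1049, 553, 706 and 658 in DMSO replicates 1 and 2 and abemaciclib replicates 1 and 2.

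Among peaks outside every annotated promoter window, this intergenic region stood 31st of 63 in DMSO replicate 1 and 17th of 221 in DMSO replicate 2. With abemaciclib it stood 18th of 1811 and 17th of 1243. The 100 bp around its summit in abemaciclib replicate 1 had a GC content of 81%, and no E2F, CHR or NFY letters occurred in the 200-bp window. The sequence is shown because this was the highest Rb signal near CCNE1.
CCNE1 downstream region, chr19:29844557-29844656, plus strand: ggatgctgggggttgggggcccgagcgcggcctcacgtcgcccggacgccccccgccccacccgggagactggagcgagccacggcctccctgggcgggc
A weaker intergenic region, chr19:29834970-29835503, lay from 13.4 to 13.6 kb beyond the nearest CCNE1 TSS. It was listed with abemaciclib alone, at scaled pileups of 15.2 and 24.9 and ranks of 10012 and 6961, and the summits of the replicates were 234 bp apart. A further peak 48.0 kb upstream, chr19:29764019-29764166, was listed in DMSO replicate 2 alone, at a scaled pileup of 8.86 from 6 fragments, the lowest pileup at background in that list. The other 6 members had no peak of this kind in any Rb library.

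**Figure D2:**
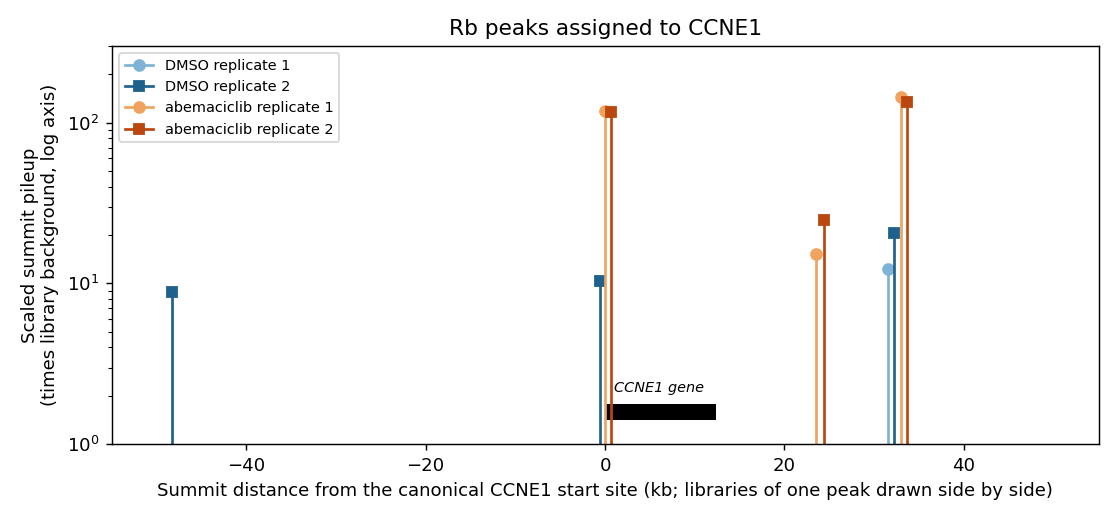
Scaled summit pileup (log axis, in multiples of the library's background) of every Rb peak assigned to CCNE1, against the distance of its summit from the canonical TSS; points of the same peak are drawn side by side, and the black bar is the CCNE1 gene. The intergenic peak downstream of the gene is as high as the promoter peak with abemaciclib and is the one listed in all 4 libraries.

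CCNA2, the gene for cyclin A2, was listed with abemaciclib only. Its scaled pileups were 67.1 and 65.2, from 44 and 34 fragments, with a mean of 66.2 ± 1.32 (SD, n = 2). The replicates were nearly equal, and neither DMSO list had a peak. The lowest pileup listed at background there was 6 fragments. The peak ranked 2578 and 2417 with abemaciclib, with folds of 27.2 and 23.0 and −log10 p of 64.6 and 50.1. It covered chr4:121823323-121824435, with summits 133 bp upstream of and 21 bp inside the single annotated TSS, the latter in the 5′ UTR.

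CDK2, the kinase gene itself, had the same pattern. The scaled pileup was 74.7 and 72.9 with abemaciclib, from 49 and 38 fragments, with a mean of 73.8 ± 1.29 (SD, n = 2), and no DMSO peak was listed. Ranks were 3374 and 2125, folds 16.7 and 24.8, and −log10 p 50.4 and 56.0. The fold and rank were lower in replicate 1, where the local background was 3.04 times that of the library, while the pileup was not. The peak covered chr12:55966427-55967303, with summits 35 bp upstream of and 53 bp downstream of the canonical TSS. It also overlapped promoter windows of PMEL, a melanosome matrix gene that lies over this locus on the other strand, and of the lncRNA ENSG00000258554, so the signal cannot be assigned to CDK2 alone. Among 7612 coding genes with solved promoter peaks in the abemaciclib libraries alone, CDK2 stood at percentile 89.9 and CCNA2 at percentile 85.9 of the abemaciclib scaled pileup. The median of those genes was 34.6.

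CDC25A, the phosphatase that activates CDK2, was bound in all 4 libraries. Scaled pileups were 29.3 and 22.2 with DMSO, and 192 and 198 with abemaciclib. The spread between replicates was small beside the gap between treatments, with means of 25.7 ± 5.02 and 195 ± 3.86 (SD, n = 2 each). The ratio was 7.58, with single-library ratios from 6.57 to 8.92 (exact permutation p = 0.333, two-sided). Ranks were 128 and 424 with DMSO, at folds of 12.1 and 9.40 and −log10 p of 22.4 and 16.1. With abemaciclib they were 351 and 234, at folds of 63.6 and 68.4 and −log10 p of 214 and 196. The peak covered chr3:48187269-48188800 and no other promoter window. The summits lay 12 bp upstream of and 2 bp inside the TSS with DMSO, within 50 bp of the E2F letters shown above, and 129 and 141 bp downstream, in the 5′ UTR, with abemaciclib.

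SKP2, which encodes the receptor that targets p27, had the widest spread between DMSO replicates. The scaled pileup was 15.4 in DMSO replicate 1 and 29.5 in DMSO replicate 2, from 10 and 20 fragments, and 104 and 125 with abemaciclib. The means were 22.5 ± 10.0 and 114 ± 14.9 (SD, n = 2 each), a ratio of 5.08. Single-library ratios ran from 3.51 to 8.10, so the size of the difference was known least well for this member (exact permutation p = 0.333, two-sided). The DMSO ranks were also far apart, at 689 and 216, with folds of 6.31 and 11.8 and −log10 p of 9.32 and 22.3. With abemaciclib the ranks were 1241 and 783, the folds 39.6 and 41.6 and the −log10 p 107 and 108. The peak covered chr5:36150920-36152699 and also overlapped the promoter window of LMBRD2, which is transcribed in the other direction. Both abemaciclib summits fell on the same base, 57 bp upstream of the canonical TSS and in the UTR of another SKP2 transcript, whereas the DMSO summits lay 103 bp upstream and 151 bp downstream.

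FBXO5, the gene for the inhibitor of the anaphase-promoting complex, had the highest mean abemaciclib signal of the 7. Scaled pileups were 43.1 and 47.3 with DMSO, and 482 and 505 with abemaciclib, from 28, 32, 316 and 263 fragments. The replicates lay close together in each treatment, at means of 45.2 ± 2.94 and 493 ± 16.0 (SD, n = 2 each). The ratio was 10.9, with single-library ratios from 10.2 to 11.7 (exact permutation p = 0.333, two-sided). Of the 10366 coding genes, 12 had a higher mean abemaciclib scaled pileup. The peak ranked 87 and 131 with DMSO, at folds of 12.3 and 11.8 and −log10 p of 27.7 and 29.3, and 18 and 13 with abemaciclib, at folds of 106 and 115 and −log10 p of 563 and 498. As at CCNE2, the local background was raised, to between 2.09 and 3.04 times that of the library, and the ratio by fold was 9.19. The peak covered chr6:152982057-152984317. Its summits lay from 447 to 353 bp upstream of the canonical TSS, in the 5′ UTR of a longer FBXO5 transcript, and the peak overlapped the promoter window of the lncRNA ENSG00000227627.

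With abemaciclib, the order of the members by mean scaled pileup was FBXO5, CCNE2, CDC25A, CCNE1, SKP2, CDK2 and CCNA2. The exact Poisson 95% intervals of FBXO5 and CCNE2 overlapped in each abemaciclib library. In abemaciclib replicate 1 they were 282 to 353 and 237 to 302 fragments. The values of CCNE1 and SKP2 overlapped between replicates. Those of CDK2 and CCNA2 did not overlap but differed by less than the counting error of a single pileup, as the exact Poisson 95% interval in abemaciclib replicate 1 was 36.3 to 64.8 fragments for CDK2 and 32.0 to 59.1 for CCNA2. The median over 10366 coding genes was 44.6, and all 7 members exceeded it. With DMSO, CCNE2 was highest, followed by FBXO5, CDC25A and SKP2, and the values of CDC25A and SKP2 overlapped. The Poisson intervals of CCNE2 and FBXO5 also overlapped in each DMSO library. By the fold of the peak caller, the top of the abemaciclib order was less certain, because CCNE2 had a fold of 106 in replicate 1, as had FBXO5, but 68.0 in replicate 2.

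**Figure D3:**
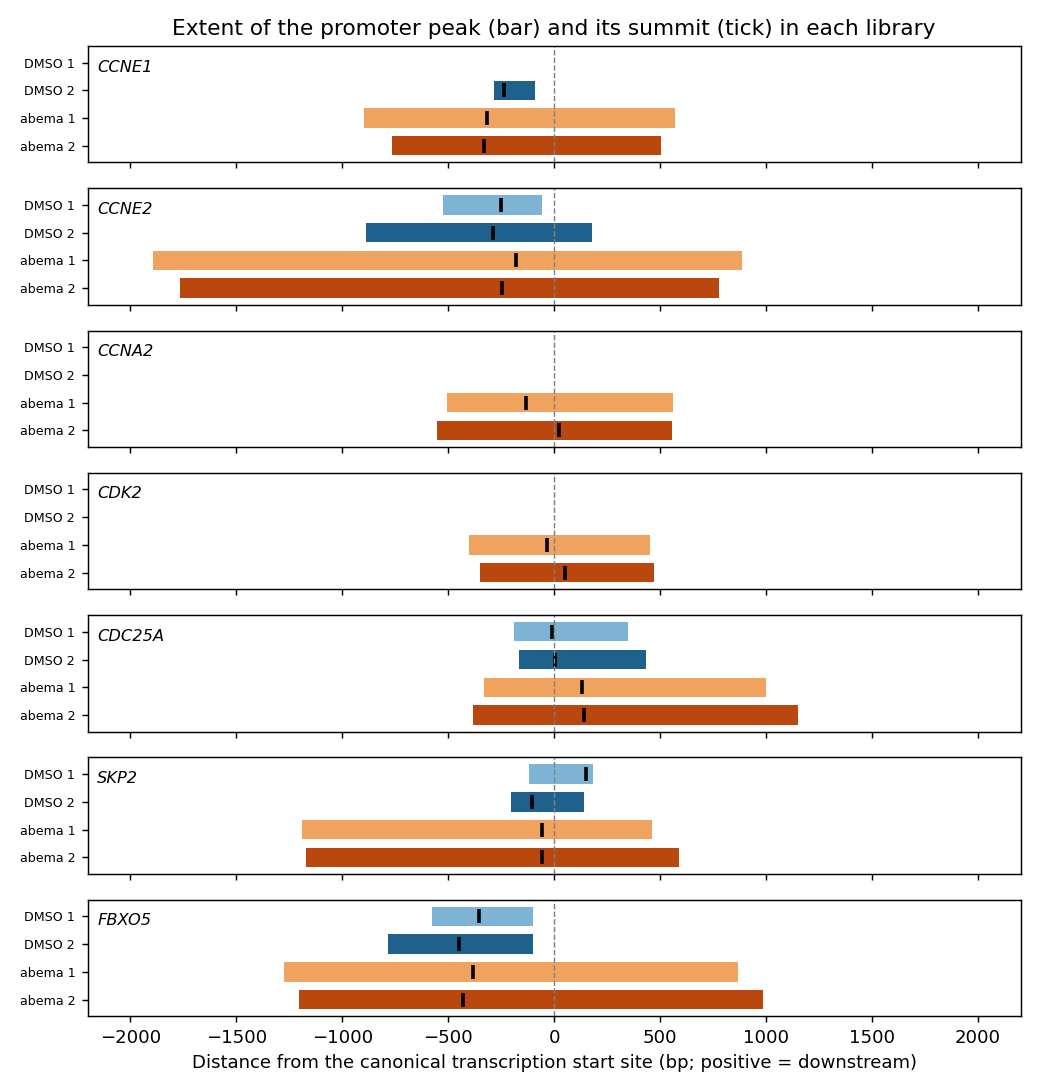
Extent of the promoter peak (bar) and its summit (tick) in each Rb library, against the distance from the canonical TSS in bp, positive downstream. The abemaciclib bars are longer than the DMSO bars at every promoter that has both. The summits of CCNE2 and FBXO5 stay upstream of the canonical TSS in all 4 libraries.

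The promoter peaks were wider with abemaciclib at each member that had a DMSO peak. Mean widths were 2663 ± 170 bp with abemaciclib and 767 ± 424 bp with DMSO at CCNE2, 2167.5 ± 31.8 and 583 ± 147 bp at FBXO5, 1707 ± 76.4 and 325 ± 31.1 bp at SKP2, and 1431 ± 143 and 569.5 ± 41.7 bp at CDC25A (SD, n = 2 each). At CCNE1 the width was 193 bp in DMSO replicate 2 and 1368 ± 141 bp with abemaciclib. The peaks present only with abemaciclib were narrower, at 1087.5 ± 27.6 bp for CCNA2 and 840 ± 25.5 bp for CDK2. Width and height were both greater with abemaciclib, but the sizes of the changes did not follow each other. SKP2 had a width ratio of 5.25 and a scaled pileup ratio of 5.08, while FBXO5 had 3.72 and 10.9. The part of height in the width was not tested. Across all peaks of a list the median width was 277 and 256 bp with DMSO and 755 and 726 bp with abemaciclib.

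The difference between treatments at the members was set beside that at all 1281 coding genes with a promoter peak in all 4 libraries, whose median ratio of scaled pileup was 7.35, with quartiles of 6.01 and 8.94. Promoters that lack a peak in a DMSO library have no such ratio. CCNE2 and CDC25A lay near the middle, at percentiles 60.7 and 54.3. SKP2 lay low, at percentile 9.52, although its highest single-library ratio of 8.10 was above the median. FBXO5 lay high, at percentile 92.3, with its lowest single-library ratio of 10.2 above the upper quartile. By fold, the median over the same genes was 6.45 and FBXO5 stood at percentile 87.7. The median over the 4 members was 7.73, close to that of all such genes.

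**Figure D4:**
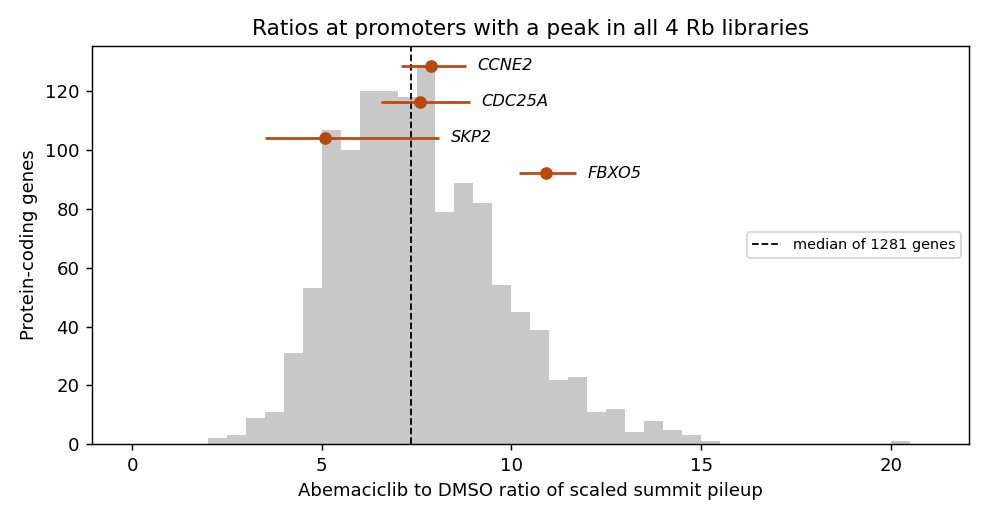
Histogram of the abemaciclib to DMSO ratio of scaled summit pileup over 1281 coding genes with a promoter peak in all 4 Rb libraries, with the 4 members as points and the range of their single-library ratios as lines. The dashed line is the median of all genes, 7.35; CCNE2 and CDC25A lie beside it, SKP2 at 5.08 and FBXO5 at 10.9.

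The coding genes nearest to each member in rank over the 4 Rb libraries, measured as the distance between log10 ranks, were CSE1L and HNRNPUL1 for CCNE2, at distances of 0.244 and 0.309. XRCC3 and ZFYVE21 shared a peak and were nearest to CDC25A (0.148). HAUS8 and MYO9B, which likewise shared a peak, were nearest to SKP2 (0.176). RALY and PCNA were nearest to FBXO5 (0.308 and 0.408). PCNA, the sliding clamp of DNA replication, ranked 108 and 84 with DMSO and 13 and 27 with abemaciclib.

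Across 30 other genes of the CDK2 pathway, chosen with earlier results of these data known, 26 (86.7%) had a promoter peak in both abemaciclib libraries. In all 4 Rb libraries 10 (33.3%) had one. The shares over all coding genes were 52.7% and 6.41%. A further 12 were listed by both abemaciclib libraries but by no DMSO library, 40% of the list beside 38.9% of all coding genes. None had the reverse pattern, but neither had any coding gene, as all 1281 with a promoter peak in both DMSO libraries had one in all 4. None had an IgG2a peak, where the share over all coding genes was 0.03%. The 10 genes bound in all 4 libraries were CDC25C, WEE1 and PKMYT1, the phosphatase and kinases that set the inhibitory phosphates of CDKs; USP37, a deubiquitinase of cyclin A; CCNF, an F-box protein; NPAT, the CDK2 substrate that activates histone genes; CDC6, a replication licensing factor; and RB1, RBL1 and E2F1 of the Rb pathway itself. Their ratios of scaled pileup had a median of 6.18, from 4.44 for CDC6 to 7.35 for PKMYT1, a range that overlapped that of the 4 members, since SKP2 had 5.08. CDC6 had the highest DMSO signal, at 57.0 and 73.9, and reached 299 and 282 with abemaciclib, below CCNE2 and FBXO5. RB1 had the lowest mean DMSO signal of the 10, at 9.24 and 16.2, and reached 79.3 and 88.2 with abemaciclib. Overlap with promoters of other genes is not given for these pathway peaks, so their signal may not belong to the named gene alone.

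**Figure D5:**
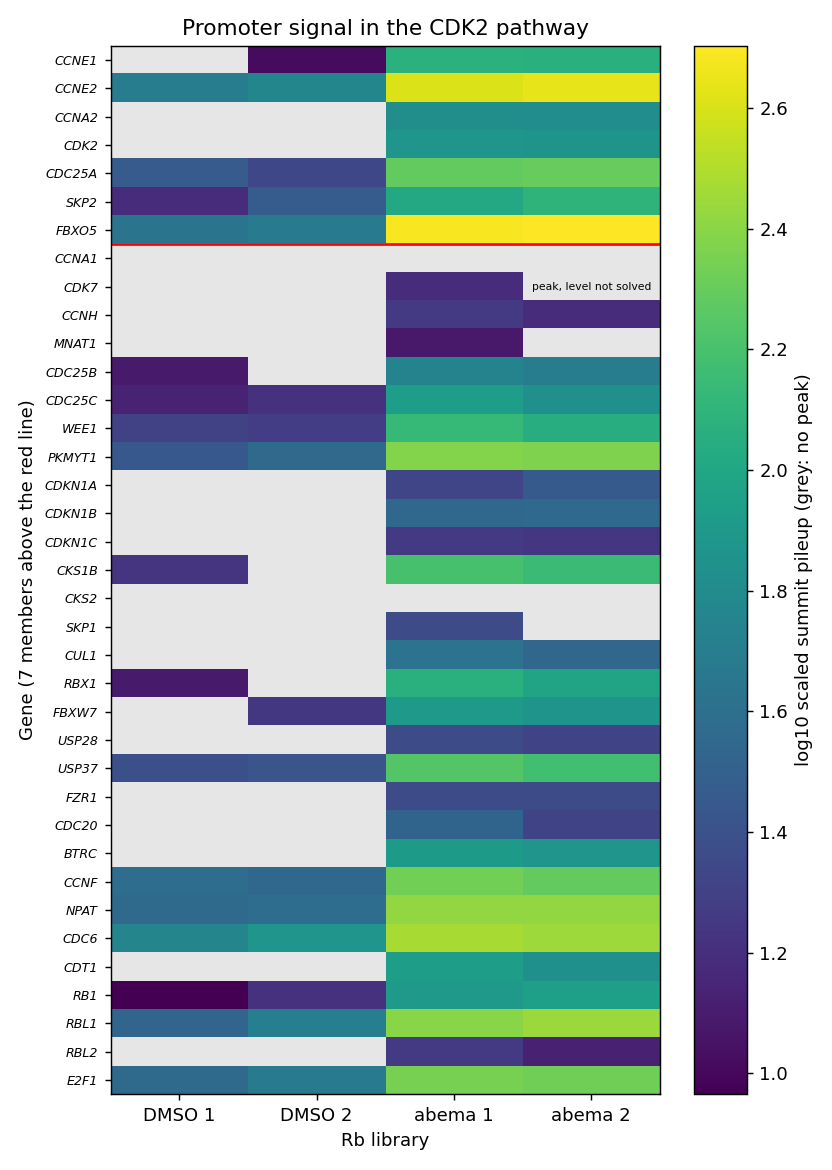
Promoter scaled pileup (colour, log10 of multiples of the library's background) in each Rb library for the 7 members, above the red line, and 30 other genes of the CDK2 pathway; grey cells have no listed peak, and for CDK7 in abemaciclib replicate 2 a peak was listed whose level could not be solved. The brightest rows with abemaciclib are FBXO5 and CCNE2, and CCNA1 and CKS2 are grey throughout.

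The genes for the CDK inhibitors p21, p27 and p57, CDKN1A, CDKN1B and CDKN1C, had promoter peaks with abemaciclib only, at means of 25.1 ± 5.25, 35.8 ± 0.974 and 17.8 ± 0.731 in scaled pileup (SD, n = 2 each), all below each of the 7 members. The CDK-activating kinase was bound weakly. CDK7 and CCNH had peaks in both abemaciclib libraries alone, ranking between 8892 and 10012, and MNAT1 had a peak in abemaciclib replicate 1 alone. Of the partners of SKP2 in its ligase, CUL1 was listed with abemaciclib only, CKS1B and RBX1 in DMSO replicate 1 and both abemaciclib libraries, and SKP1 in abemaciclib replicate 1 alone. CKS1B, the cofactor that SKP2 needs to bind p27, reached 150 ± 10.7 with abemaciclib (SD, n = 2), above SKP2. FZR1 and CDC20, the activators of the anaphase-promoting complex that FBXO5 opposes, were at 22.9 ± 0.104 and 27.3 ± 8.80 with abemaciclib (SD, n = 2 each) and had no DMSO peak. CCNA1, the germline counterpart of CCNA2, and CKS2 had no promoter peak in any Rb library.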

How the data were processed

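Rb CUT&RUN peak lists of ZR-75-1 cells were analysed: 2 DMSO, 2 abemaciclib (500 nM, 4 days) and 1 IgG2a list, grouped by the sample titles. The authors trimmed reads, aligned them with Bowtie2 (version 2.3.4.1) to hg38, removed blacklisted and mitochondrial reads, kept duplicates, and called peaks per library with MACS2 (version 2.2.7.1) at a q-value of 0.05 against IgG. The control used for the IgG2a list is not given in the sources used here. Each deposited list gives a fold (a ratio of pileup plus 1 to local background plus 1), −log10 p-values and −log10 q-values, and an integer score, which was not needed. The lists hold no read counts over common regions, so the authors' count model could not be run.

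The pileup (a whole number) and local background of each peak were solved from the deposited fold and Poisson p-value, at a tolerance of 0.02 of the step to the next whole pileup, for between 98.2% and 100% of peaks per list. The most frequent background was taken as the mean coverage of the library. Implied fragment numbers assume an effective genome of 2.7 Gb and a fragment length equal to the least width of a peak. Intervals are exact Poisson 95% intervals and cover counting error only, since duplicates were kept. The scaling is relative within a library and would not show a change in total released DNA. Tested on simulated data, the solution recovered the pileup and background of 100% of 3000 peaks, and 0.5% of 1000 pileups that were not whole numbers passed the tolerance.

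Start sites came from GENCODE 44 and sequences from GRCh38; an overlap was at least 1 bp. The RefSeq promoters (GRCh38.p14) matched by symbol for 5 of the members were identical in sequence. Ranks were by −log10 p within a list. Treatments were compared by presence of peaks and by exact permutation tests, two-sided. The members, the pathway list, the motifs and the rule for named genes were chosen with earlier results of these data known. Named genes were the members, genes sharing their promoter peaks, pathway genes with promoter peaks in all 4 or no Rb library, and the 2 coding genes nearest in rank to each member bound in all 4; the other pathway genes were named after their values were seen. Alternatives covered the q-value, list length, promoter window, transcript set, distance limit, scaling, replicate pairing and leaving out each library. Python 3.11.15, NumPy 2.4.6, SciPy 1.17.1 and matplotlib 3.10.9 were used.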

Additional observations from a re-analysis of the deposited data

How the results depend on the processing

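Of 63 alternative values for 6 results, 57 lay within set limits, 6 moved farther and none reversed. The limits were 1.5 times the main value for a count, or 1 SD of the 4 single-library median ratios (0.408) for the median ratio. Only the median ratio could reverse, since a count has no direction. Values within these limits could still change, as given here. With each list cut to its 1438 strongest peaks, no pathway gene (0) had a peak in both abemaciclib libraries alone, against 12; members with a peak in both abemaciclib libraries numbered 5, as CCNA2 and CDK2 ranked too low, and CCNE1 kept 1 of its 2 distal regions. Requiring summits within 200 bp of each other also left 1 distal region. The median ratio over the 4 members bound in all 4 libraries was 7.73. It was 10.2 per implied fragment number, 6.85 without scaling and 6.36 by fold. Treating same-numbered replicates as a block (replicate block) gave 7.78, with a smallest possible p of 0.5. The labels give the shared numbers no meaning. Over 1281 genes the replicate deviations of the treatments correlated at r = -0.087, which cannot show whether same-numbered libraries were run together. The study reports that the experiment was independently repeated, but the labels do not say which libraries shared a run. Leaving out each library in turn gave ratios from 7.56 to 8.05, from 12 to 15 pathway genes with abemaciclib peaks alone, 7 members with abemaciclib peaks and 4 or 5 in all remaining libraries. Such counts can only stay or rise when a library is left out, because fewer lists then have to meet the rule. They are among the 57 values within the limits but could not have shown a fall. At a q-value of 1e-05, SKP2 lost its peak in DMSO replicate 1, which left 3 members bound in all 4 libraries. Relative counting error is largest on the DMSO side, although its libraries were the deeper ones by implied fragments. Pileups of 7 to 39 fragments stand behind the DMSO promoter values, and members without a DMSO peak have no value there.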

Other observations

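Of the 30 other pathway genes, 3 had a distal Rb region in both abemaciclib libraries that was nearest to them, namely WEE1, PKMYT1 and CDKN1A. The share over all coding genes was 5.2%. Each of these pathway regions overlapped an annotated promoter of another gene, and neither CCNE1 region found with abemaciclib did. How often such regions do so over all coding genes is not given, so the difference is a description only. BTRC and CDT1, a ubiquitin ligase receptor for WEE1 and CDC25A and a licensing factor, had promoter peaks with abemaciclib only, at scaled pileups of 78.6 ± 5.32 and 77.2 ± 11.5 (SD, n = 2 each), near those of CDK2. FBXW7, which encodes the receptor that targets cyclin E for destruction, was listed in DMSO replicate 2 at 17.7 and with abemaciclib at 79.3 and 72.9. These genes were named after their values were seen.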
